A study of Saccharomyces cerevisiae with 27 samples.

Results

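The genes described here are those of the large subunit of the yeast mitochondrial ribosome that carry the name MRPL followed by a number. They were found by that name among the gene names of the scanner files, which gave 34 of the 6388 genes on the arrays, each with a single spot. Of these, 33 were among the 5865 genes that could be tested at every age. The exception was MRPL17, whose spot was marked as unusable on 19 of the 27 arrays. RefSeq's gene table assigns every one of the 34 to a mitochondrial large-subunit family, so the label and the annotation match. Of the 33 tested, 21 belong to families shared with the bacterial ribosome (written uL or bL), and 12 to families known from mitochondria (written mL).

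The study measured RNA of wild-type Saccharomyces cerevisiae of the W303 background, a common laboratory strain, as mother cells grew old by dividing. Replicative age is counted in generations, the number of daughters a mother has made. Every array set RNA of aged cells in one dye against RNA of young cells, 1 generation old and grown under matched conditions, in the other, and log2 ratios are given as aged over young throughout. Cells of 1 generation were set against young cells on 7 arrays, so that both dyes carried young RNA; cells of 8 generations filled 6 arrays, and cells of 12 and of 18-20 generations 7 each. All cells were wild type and untreated as far as the labels say, and the series description leaves the mating type open. As the protocols in the labels give it, aged cells were sorted with magnetic beads, cultures were held in log phase, and RNA was amplified before it was labelled. Whether the arrays of an age had cultures of their own is not stated; p-values therefore reflect the spread among arrays, some of which may be technical. These are bulk samples, so fewer cells of a kind and less RNA per cell cannot be told apart.

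The mitochondrial ribosome translates the few proteins that mitochondrial DNA encodes, most of them core subunits of the respiratory chain, while its own proteins are almost all made from nuclear genes in the cytosol and imported. Its large subunit holds the peptidyl transferase centre and the exit tunnel through which the new protein leaves, and in yeast it is anchored at the inner membrane, where the products are inserted. Mitochondrial translation has been linked to ageing in yeast: deletion of MRPL25, also named AFO1, has been reported to lengthen replicative life span. The mRNAs of many mitochondrial ribosomal proteins are bound by Puf3, an RNA-binding protein that acts on their decay and location.

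Several arrays stood apart from others of their age. The 1-generation array 2 was the only one of the 7 at that age with inverted dyes. It correlated over genes at r = -0.67 with array 1, -0.38 to -0.21 with arrays 3 to 6 and 0.09 with array 7. Values of single arrays and their ranges are not adjusted for dye orientation. The 8-generation array 1 correlated at r = -0.66 to -0.58 over genes with arrays 2, 3 and 4 of that age. Its direction is therefore not settled, and values at 8 generations are also given with its sign turned. The 8-generation arrays 5 and 6 were like no other array of that age, whichever way array 1 is read. With arrays 1 to 4, array 5 correlated at -0.14 to 0.06 and array 6 at -0.11 to 0.16, and the correlation of array 5 with array 6 was 0.03. The 12-generation arrays 2 and 3 correlated with each other at 0.80 but with the other 12-generation arrays at 0.23 to 0.45, and 12-generation array 1 correlated at 0.85 to 0.88 with 18-20-generation arrays 1 to 4. The 12-generation arrays 4 and 5 correlated with each other at 0.92, and arrays 6 and 7 at 0.86. Each of the pairs 2 and 3, 4 and 5, and 6 and 7 held 1 array of each dye orientation. The labels do not say whether a pair shares RNA, so the 7 arrays of that age may hold fewer separate measurements. Arrays 1 to 4 at 18-20 generations correlated among themselves at 0.93 to 0.96, and with arrays 5 to 7 at 0.63 to 0.73. The scanner files give a median of 52 pixels per spot for all 6 of the 8-generation arrays and 18-20-generation array 7, and 80 or 120 for the other 20, so spot size and the 8-generation group overlap except for that 1 array.

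The MRPL genes called at 12 generations all rose, and those called at 18-20 went both ways. Of the 33 tested genes, 13 rose, 0 fell and 20 did not pass at 12 generations, where 44.8% of all genes changed (23.3% rose and 21.5% fell). Without 12-generation arrays 2 and 3, however, 5 rose and 4 fell. At 18-20 generations 7 rose and 7 fell, where 64.2% of all genes changed, and the median of the group lay just under 0. MRPL28 alone changed by more than 2-fold at either age, and it rose at both. The median fitted log2 ratio of the 33 genes was 0.06 at 1 generation, 0.22 at 8, 0.29 at 12 and -0.09 at 18-20 generations, beside -0.00, -0.01, 0.02 and 0.01 for all genes tested at the same ages.

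**Figure D1:**
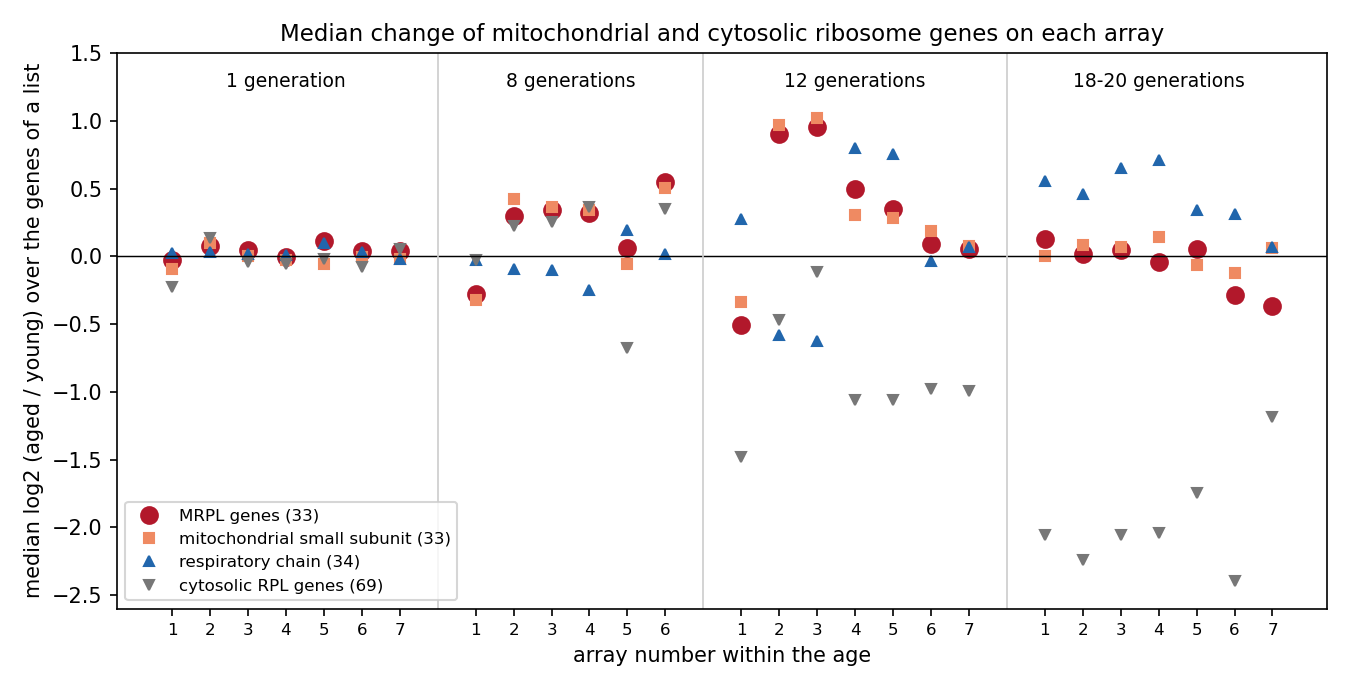
Median log2 ratio of aged over young cells on each of the 27 arrays (vertical axis), with arrays grouped by age (horizontal axis), for MRPL genes (circles), mitochondrial small-subunit genes (squares), nuclear respiratory chain genes (upward triangles) and cytosolic large-subunit RPL genes (downward triangles). At 12 generations the MRPL medians ran from -0.51 on array 1 to 0.95 on array 3, and at 18-20 generations from -0.36 to 0.13, while the RPL medians lay at -1.19 or lower at 18-20 generations.

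The spread between arrays was wide for the group as a whole. The median of the MRPL genes on one array averaged 0.04 ± 0.05 at 1 generation (SD, n = 7), 0.22 ± 0.29 at 8 generations (n = 6), 0.33 ± 0.51 at 12 generations (n = 7) and -0.06 ± 0.19 at 18-20 generations (n = 7). The 12-generation arrays were the least alike: arrays 2 and 3 had medians of 0.90 and 0.95, array 1 had -0.51, and the other 4 lay between 0.05 and 0.50. Array 1 gave the lowest value of that age for 26 of the 33 genes, and array 2 or 3 gave the highest for 27 of 33. At 18-20 generations 5 medians lay between -0.04 and 0.13, and arrays 6 and 7 had -0.29 and -0.36. Ranges of the array medians overlapped between 12 and 18-20 generations.

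**Figure D2:**
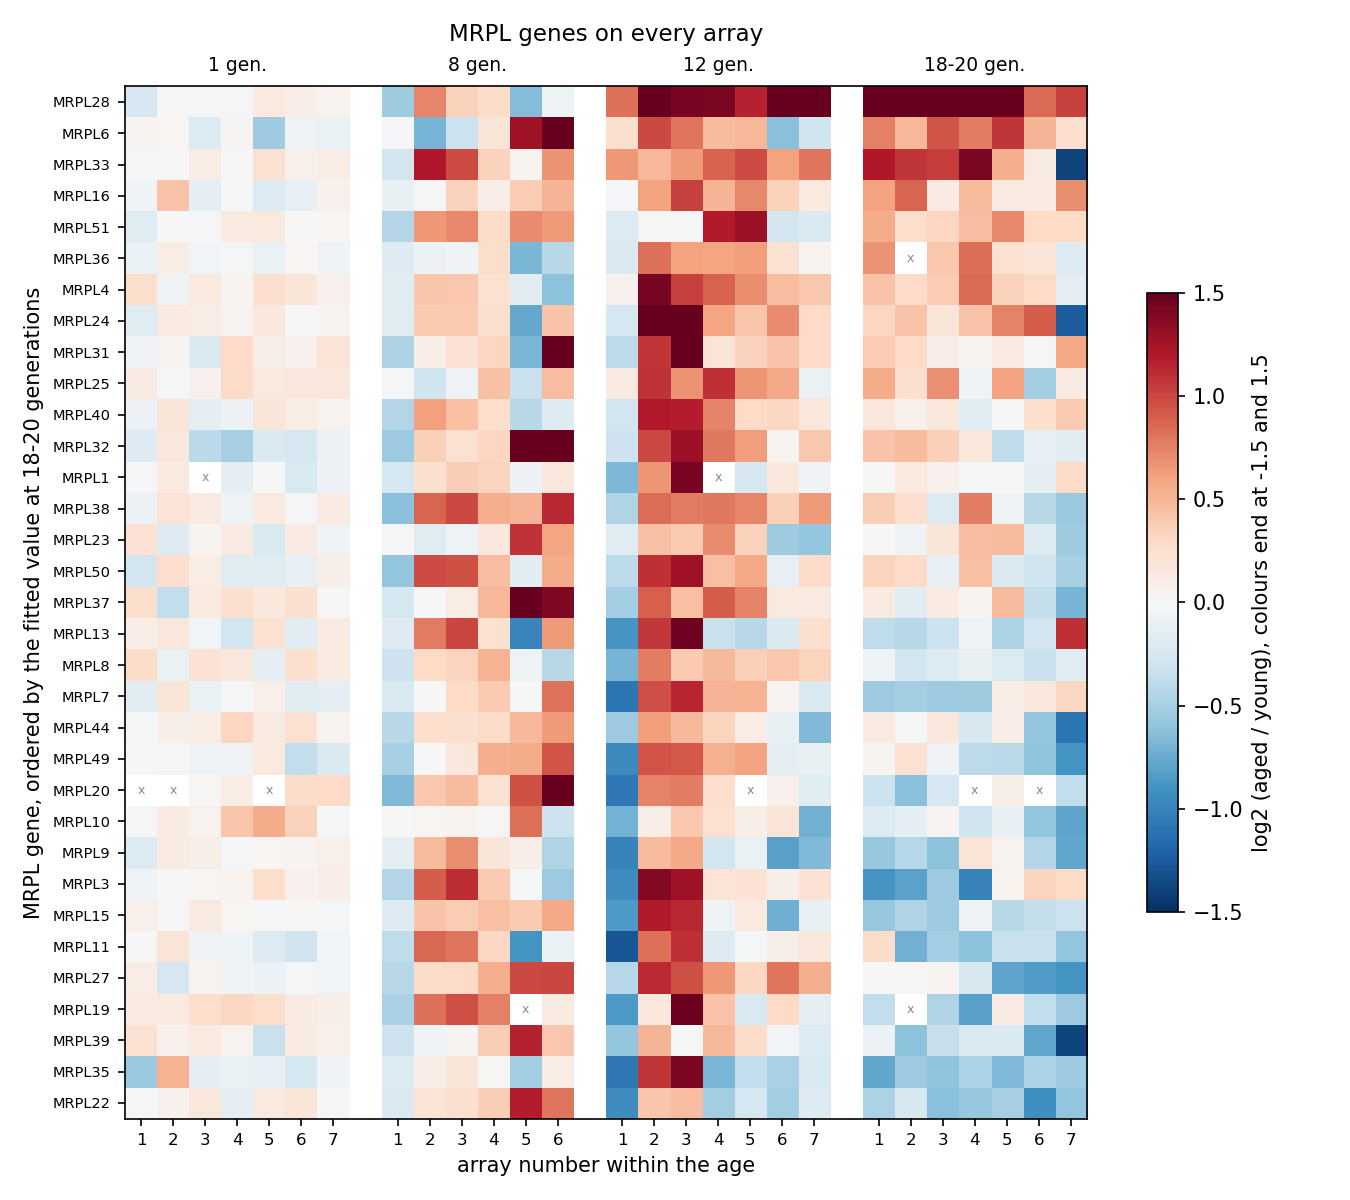
Log2 ratio of aged over young cells for each of the 33 tested MRPL genes (rows, ordered by the fitted value at 18-20 generations) on every array (columns, grouped by age); red is higher in aged cells, blue is lower, and x marks a spot that was set aside. The columns of 12-generation arrays 2 and 3 are red in nearly every row while array 1 is mostly blue, and at 18-20 generations the upper rows are red and the lower rows blue.

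At 1 generation, where young RNA was read in both dyes, 0 MRPL genes passed limma's moderated test with Benjamini-Hochberg adjustment over all 5865 genes at a threshold of 0.05. No MRPL gene had an unadjusted p under 0.05 at this age, and 13 of all 5865 genes did; 0% of all genes passed after adjustment. The 3 with the lowest p were MRPL10, of the uL15 family (log2 0.15 ± 0.14 SE, n = 7), MRPL4, of the uL29 family at the tunnel exit (0.14 ± 0.14), and MRPL19, of the uL11 family (0.18 ± 0.20), each with an adjusted p of 1. The fitted values of the 33 genes ran from -0.15 for MRPL32 to 0.18 for MRPL19. One spread per gene is shared by all ages in this fit. Log ratios spread least on arrays of 1 generation, so their standard errors are wide for this age. By the same sharing they are narrow where arrays spread more, most of all at 12 generations, and p-values there can be too small. The median SE of the MRPL genes was 0.18 at 1 generation and 0.16 at 12, while their array medians had SDs of 0.05 and 0.51.

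After 8 generations most MRPL genes lay above 0 without passing the test. Of the 33, 31 had a fitted value above 0, beside 2870 of all 5865 genes and 28 of the 33 mitochondrial small-subunit genes. An unadjusted p under 0.05 was found for 7 of the 33 MRPL genes, against 748 of 5865 genes. After adjustment 0 passed, as did 0% of all genes. MRPL37, of the mL54 family, had a lowest, median and highest value of -0.26, 0.30 and 2.61 on the 6 arrays and a fitted log2 ratio of 0.79 ± 0.23 (SE, limma adjusted p = 0.121). For MRPL38, of the uL14 family at the subunit interface, these were -0.62, 0.71 and 1.13 and 0.53 ± 0.18 (limma adjusted p = 0.183). In both genes array 1 was the lowest and the only array below 0. MRPL32, of the bL32 family, whose protein must be processed by the m-AAA protease in the matrix before the ribosome can be assembled, had -0.55, 0.34 and 2.63 and a fitted value of 0.72 ± 0.25 (limma adjusted p = 0.186), again with only array 1 below 0. Leaving out 1 array lowered both of the larger values: MRPL37 had 0.39 without array 5 and MRPL32 had 0.37 without array 6.

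How many of these genes passed depended on how 8-generation array 1 was treated. With that array turned, 9 MRPL genes rose and 0 fell, where 5.49% of all genes rose and 3.58% fell, and the median was 0.32. The 9 were MRPL38 (log2 0.78, limma adjusted p = 0.00157), MRPL32 (0.93, 0.00768), MRPL37, MRPL27, MRPL20, MRPL22, MRPL19, MRPL50 and MRPL51. With the array left out, 7 rose and 0 fell (4.58% and 2.14% of all genes). With its sign as labelled, 16 rose with arrays weighted by quality (12.7% of all genes) and 4 with spot size as a block (2.44%). With array 3 turned instead, whose description omits the dye inversion that its title gives, 0 passed and the median was 0.09, a setting chosen after the data were seen. In the authors' deposited table, the 8-generation columns 1 and 3 correlated at 0.97 and 0.94 with each other's scanner array, and at -0.58 and -0.57 with their own. To which of these 2 arrays the omitted inversion belongs is therefore not settled.

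At 12 generations the called genes went one way. Of 33 MRPL genes, 13 rose (39.4%) and 0 fell in limma (adjusted p under 0.05), where 23.3% of all genes tested rose and 21.5% fell. The 13 were MRPL28, MRPL24, MRPL33, MRPL4, MRPL25, MRPL32, MRPL27, MRPL38, MRPL40, MRPL31, MRPL16, MRPL50 and MRPL36. Fitted values lay above 0 for 29 of the 33 genes, beside 2999 of all 5865 genes. In 12 of the 13, at most 1 array had the opposite sign. The families shared with bacteria held 9 of the 13 (of 21 tested, median 0.29) and the mitochondrial families 4 (of 12, median 0.31), so the medians of both kinds were much the same.

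MRPL28, of the mL40 family, changed most. Its log2 ratio had a lowest, median and highest value of 0.82, 1.42 and 1.74 at 12 generations, against -0.26, 0.02 and 0.15 at 1 generation. All 7 arrays of 12 generations thus lay above every array of 1 generation, and the fitted value was 1.39 ± 0.14 (SE, limma adjusted p = 1.22e-08), a 2.62-fold rise. In intensity, normalised by loess, its spot had a median of 5736 in 12-generation cells and 2151 in the young cells on the same arrays.

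The next largest rises at this age were in MRPL24, MRPL33 and MRPL4. MRPL24, of the bL28 family, had -0.26, 0.59 and 1.83 and a fitted value of 0.75 ± 0.20 (limma adjusted p = 0.00239), with array 1 the lowest and array 3 the highest. MRPL33, of the uL30 family, had 0.50, 0.65 and 0.98 and a fitted value of 0.74 ± 0.20 (limma adjusted p = 0.00348). It was the only gene besides MRPL28 whose arrays did not overlap with those of 1 generation (-0.03 to 0.23), as held for 15.7% of all genes. The fitted difference of MRPL33 from 1 generation was 0.56 ± 0.29, however, and did not pass (limma adjusted p = 0.154). MRPL4 had 0.07, 0.70 and 1.42 and 0.71 ± 0.13 (limma adjusted p = 8.63e-05), above 0 on all 7 arrays.

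MRPL25, the gene whose deletion has been tied to life span, had a lowest, median and highest log2 ratio of -0.10, 0.67 and 1.09 at 12 generations. Its fitted value was 0.57 ± 0.13 (limma adjusted p = 0.000775), with 6 of 7 arrays above 0, and it was also higher than at 1 generation (difference 0.54 ± 0.19, limma adjusted p = 0.0314). For MRPL32 the values were -0.31, 0.63 and 1.28, with a fitted 0.56 ± 0.23 (limma adjusted p = 0.0465). That call was near the threshold: it was lost without any of 15 single arrays, with an adjusted p of up to 0.153 without 12-generation array 3.

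The other 7 called rises had fitted values of 0.40 to 0.56. MRPL27, of the mL41 family, had a lowest, median and highest value of -0.43, 0.65 and 1.11 at 12 generations and a fitted 0.56 ± 0.16 (limma adjusted p = 0.00586), with array 1 alone below 0. MRPL38 had a lowest, median and highest value of -0.45, 0.73 and 0.84 at 12 generations and a fitted 0.54 ± 0.16 (limma adjusted p = 0.00798), with array 1 the only one below 0. MRPL40, of the uL24 family near the tunnel exit, had -0.28, 0.31 and 1.19 and a fitted 0.52 ± 0.14 (limma adjusted p = 0.00427), again with array 1 alone below 0. MRPL31 (0.51 ± 0.18), MRPL16 (0.49 ± 0.11), MRPL50 (0.48 ± 0.17) and MRPL36 (0.40 ± 0.12) also had their lowest value on array 1 and their highest on array 2 or 3. The 4 genes with a fitted value below 0 at this age included MRPL9, of the uL3 family, at -0.25 ± 0.15 and MRPL22 at -0.22 ± 0.14, and none of the 4 passed.

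The one-sided pattern depended on 12-generation arrays 2 and 3. With both left out, a setting chosen after the data were seen, 5 MRPL genes rose and 4 fell, where 23.9% of all genes rose and 22% fell, and the median was 0.04. The 5 that rose were MRPL28 (log2 1.34 ± 0.17), MRPL33, MRPL4, MRPL25 and MRPL16. The 4 that fell were MRPL9 (-0.55 ± 0.15), MRPL35, MRPL22 and MRPL15. Set against the 1-generation arrays instead of 0, 4 rose at 12 generations and 0 fell (14.2% and 13.1% of all genes). The 4 were MRPL28, MRPL27, MRPL4 and MRPL25. At 18-20 generations 2 rose and 3 fell in this way (26.4% and 25.3% of all genes). MRPL28 and MRPL6 rose, and MRPL22, MRPL39 and MRPL10 fell.

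**Figure D3:**
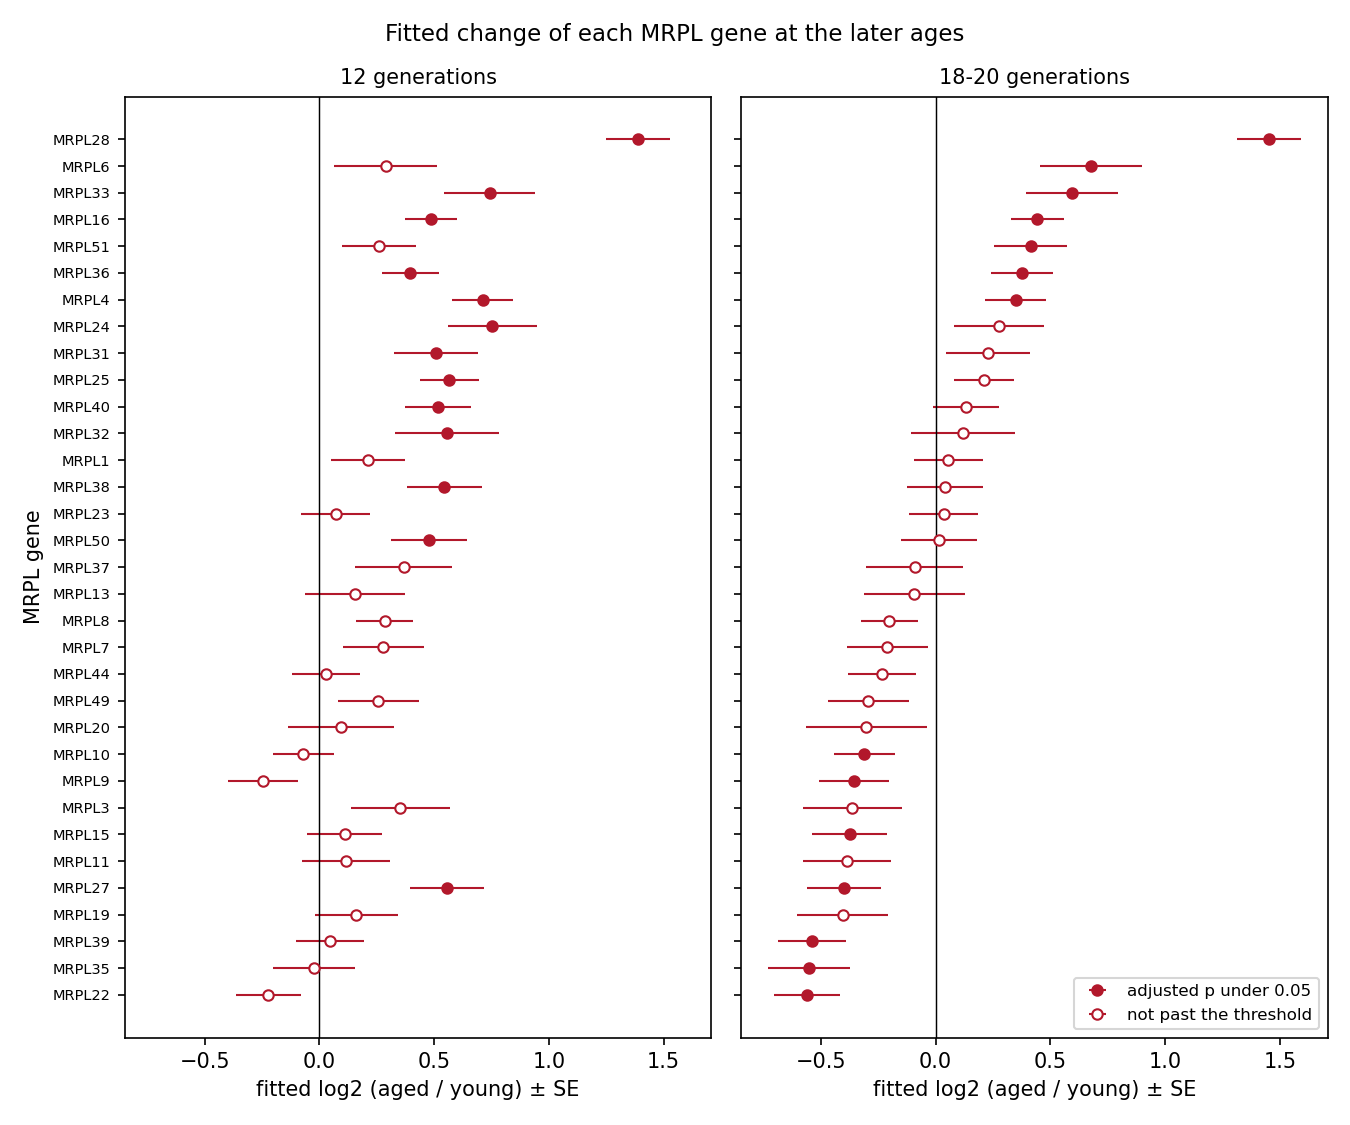
Fitted log2 ratio of aged over young cells with its standard error (horizontal axis) for each of the 33 MRPL genes (vertical axis, same order in both panels), at 12 generations (left) and 18-20 generations (right); filled points passed the adjusted p threshold of 0.05 and open points did not. At 12 generations all 13 filled points lie right of 0, at 18-20 generations 7 lie on each side, and MRPL28 lies at 1.39 and 1.45.

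In cells of 18-20 generations the MRPL genes went both ways. Of 33, 7 rose (21.2%) and 7 fell (21.2%) in limma, where 32.9% of all genes rose and 31.2% fell, so a smaller share of MRPL genes than of all genes was called in each direction. The genes that rose were MRPL28, MRPL6, MRPL33, MRPL16, MRPL51, MRPL36 and MRPL4, and those that fell were MRPL22, MRPL35, MRPL39, MRPL27, MRPL15, MRPL9 and MRPL10. Of the 13 that had risen at 12 generations, 5 also rose at 18-20 (MRPL28, MRPL33, MRPL16, MRPL36 and MRPL4), 7 did not pass and MRPL27 fell. The largest change of an MRPL gene other than MRPL28 was 0.68 in size at this age, and 12 genes passed at neither age.

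MRPL28 stayed the highest of the group. Its lowest, median and highest log2 ratio at 18-20 generations were 0.86, 1.60 and 1.77, again above every 1-generation array, and the fitted value was 1.45 ± 0.14 (SE, limma adjusted p = 7.23e-10), a 2.74-fold rise. It passed at both later ages under every alternative setting tried and without any single array, with a fitted value at 18-20 generations between 0.74 (arrays scaled to a common spread) and 1.66. Between 18-20 and 12 generations it differed by 0.06 ± 0.20 (limma adjusted p = 0.863).

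Among the other genes that rose, MRPL6, of the uL6 family, had a lowest, median and highest value of 0.25, 0.75 and 1.08, against -0.54, -0.05 and 0.04 at 1 generation. Its fitted value was 0.68 ± 0.22 (limma adjusted p = 0.00935), and no array of the 2 ages overlapped, as held for 35.4% of all genes. MRPL33 had -1.39, 1.04 and 1.41 and a fitted 0.59 ± 0.20 (limma adjusted p = 0.011). The 6 arrays above 0 ran from 0.14 to 1.41 and array 7, the one with small spots, had -1.39; without that array the fitted value was 0.90. It did not pass without array 1 (limma adjusted p = 0.0541) or array 4 (0.061), and with arrays 1 to 4 left out it was -0.19 and did not pass.

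Smaller rises were seen in MRPL16 and MRPL51. MRPL16, of the uL16 family, close to the peptidyl transferase centre, had 0.12, 0.47 and 0.87 and a fitted 0.44 ± 0.11 (limma adjusted p = 0.0013), above 0 on all 7 arrays. MRPL51, of the mL43 family, had 0.26, 0.32 and 0.72 and a fitted 0.41 ± 0.16 (limma adjusted p = 0.0244). All of its 7 arrays lay above the highest 1-generation array (0.15), but the fitted difference from 1 generation did not pass (0.40 ± 0.23, limma adjusted p = 0.147). MRPL51 no longer passed without array 1, 4 or 5 (adjusted p up to 0.0656 without array 5).

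Among the genes that fell, MRPL22, of the uL22 family that lines the exit tunnel, had a lowest, median and highest value of -0.91, -0.57 and -0.24, against -0.14, 0.06 and 0.18 at 1 generation. Every array lay below those of 1 generation, and the fitted value was -0.56 ± 0.14 (limma adjusted p = 0.00112). MRPL35, of the mL38 family, had -0.78, -0.55 and -0.47 and a fitted -0.55 ± 0.18 (limma adjusted p = 0.00837). Its arrays at this age were close together, but 1-generation arrays spread from -0.55 to 0.52 and overlapped with them.

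MRPL39, of the bL33 family, had -1.38, -0.35 and -0.09 and a fitted -0.54 ± 0.15 (limma adjusted p = 0.00239), below 0 on all 7 arrays with array 7 the lowest. MRPL15, of the mL57 family, had -0.57, -0.41 and -0.05 and a fitted -0.37 ± 0.16 (limma adjusted p = 0.0471). All 7 lay below the lowest 1-generation array (-0.03), but MRPL15's fitted difference from 1 generation did not pass (-0.46 ± 0.24, limma adjusted p = 0.103). Its call was lost without any of 20 single arrays (adjusted p up to 0.103 without 18-20-generation array 2), and its spot was above background in both channels on 22 of the 27 arrays. MRPL25 had -0.51, 0.24 and 0.68 with a fitted 0.21 ± 0.13 (limma adjusted p = 0.156), and MRPL32 had -0.39, 0.17 and 0.47 with 0.12 ± 0.23 (limma adjusted p = 0.665), so neither passed at this age and both had arrays on each side of 0.

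The smallest calls at 18-20 generations were MRPL4 (0.35 ± 0.13) and MRPL36 (0.38 ± 0.14) among the rises, and MRPL9 (-0.36 ± 0.15) and MRPL10 (-0.31 ± 0.13) among the falls. In all 4 of these genes array 7 gave the lowest value, down to -0.79 for MRPL10. Counted over the group, the arrays of 18-20 generations stood fully apart from those of 1 generation for 5 of 33 genes, namely MRPL28, MRPL6, MRPL51, MRPL22 and MRPL15, a smaller share than the 35.4% of all genes. Those of 12 generations did so for 2 of 33, also below the 15.7% of all genes.

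The 12 genes that passed at neither age included MRPL1, of the L1 stalk, and 2 proteins at the base of the other stalk. MRPL1, of the uL1 family, had a fitted 0.06 ± 0.15 at 18-20 generations and 0.21 ± 0.16 at 12. MRPL11, of the uL10 family at the base of the other stalk, had -0.39 ± 0.19 (limma adjusted p = 0.0815) and 0.11 ± 0.19 at these ages, and MRPL19, of the uL11 family beside it, had -0.41 ± 0.20 (limma adjusted p = 0.0772) and 0.16 ± 0.18. Both had array values on each side of 0 at both ages, and their spots were above background in both dyes on 22 and 16 of the 27 arrays. MNP1, which forms that stalk and has no MRPL name, did fall at 18-20 generations. MRPL23, of the uL13 family, had fitted values near 0 at both ages, 0.03 ± 0.15 at 18-20 generations and 0.07 ± 0.15 at 12.

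MRPL3, of the mL44 family, had the widest swing among these 12 genes, with a fitted -0.36 ± 0.22 at 18-20 generations and 0.35 ± 0.22 at 12 (difference -0.72 ± 0.30, limma adjusted p = 0.0968). MRPL7 (uL5 family) had -0.21 ± 0.18 and 0.28 ± 0.18, MRPL49 (bL21 family) had -0.29 ± 0.18 and 0.26 ± 0.18, and MRPL37 had -0.09 ± 0.21 and 0.37 ± 0.21. All of these had arrays on both sides of 0 at both ages. MRPL13, MRPL20, MRPL44 and MRPL8 were the other 4, with fitted values from -0.30 to -0.09 at 18-20 generations and from 0.03 to 0.29 at 12.

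**Figure D4:**
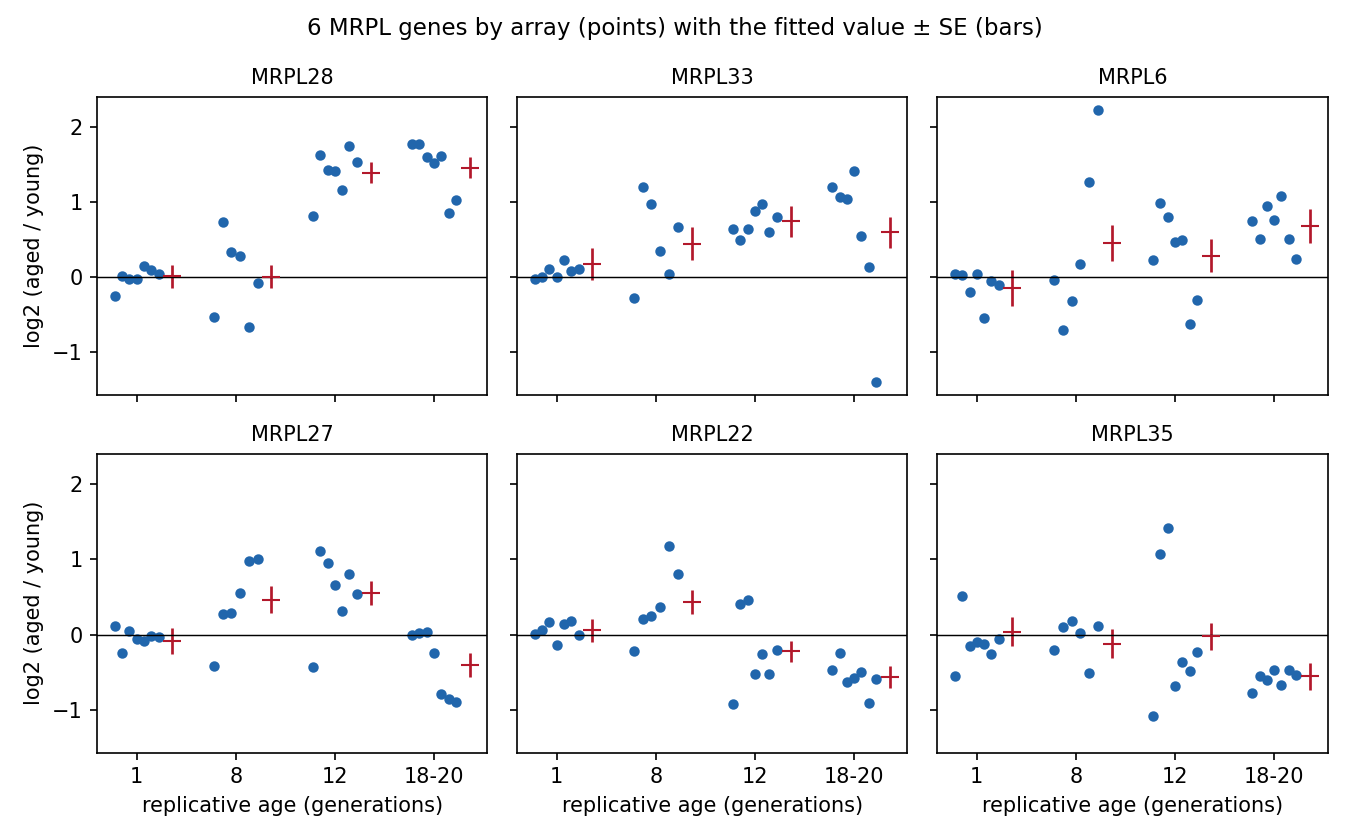
Log2 ratio of aged over young cells (vertical axis) on each array (points) at the 4 ages (horizontal axis) for 6 MRPL genes, with the fitted value and its standard error (bars). MRPL28 lies between 0.82 and 1.77 at both later ages, MRPL33 has 1 array at -1.39 at 18-20 generations, MRPL27 lies near 0 on arrays 1 to 3 and between -0.89 and -0.79 on arrays 5 to 7 of that age, and MRPL22 and MRPL35 lie below 0 on all 7.

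The calls at 18-20 generations depended on the scaling of the arrays. With arrays scaled to a common spread, MRPL28 rose (log2 0.74 ± 0.14, limma adjusted p = 0.000142) and 0 other MRPL genes passed, where 20.8% of all genes rose and 20.2% fell. Arrays 1 to 4 were also averaged into one, and so was each of the 12-generation pairs 4 and 5, and 6 and 7. In this setting 2 rose and 3 fell, where 27.9% of all genes rose and 26.7% fell. Without arrays 1 to 4, 1 rose and 5 fell (25.9% and 26% of all genes). Without arrays 5 to 7, 6 rose and 4 fell (33.7% and 31.6% of all genes) and the median turned to 0.04. Leaving out array 1 or array 4 alone left 9 calls, where 61.9% and 61.3% of all genes changed.

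The direct comparison of 18-20 with 12 generations showed lower values late. Of 33 MRPL genes, 30 had a lower fitted value at 18-20 generations, with a median difference of -0.38, beside 3062 of all 5865 genes (52.2%) and a median of -0.02. Without 12-generation arrays 2 and 3, 23 of 33 were lower, with a median difference of -0.11, beside 54% of all genes. In limma 3 fell and 0 rose, where 11.2% of all genes fell and 8.53% rose (19.7% changed). MRPL27 had a lowest, median and highest log2 ratio of -0.89, -0.25 and 0.04 at 18-20 generations, against -0.43, 0.65 and 1.11 at 12, and differed by -0.95 ± 0.23 (limma adjusted p = 0.00433). It had risen at 12 generations (0.56 ± 0.16) and fell at 18-20 (-0.40 ± 0.16), where arrays 5 to 7 lay at -0.89 to -0.79 and arrays 1 to 4 at -0.25 to 0.04; without arrays 5 to 7 its value at 18-20 generations was -0.05 and did not pass.

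The other 2 genes that passed this comparison did so narrowly. MRPL39 differed by -0.58 ± 0.21 and MRPL8, of the bL17 family, by -0.49 ± 0.17, both with a limma adjusted p of 0.0484. MRPL8 had -0.33, -0.21 and -0.07 at 18-20 generations, against -0.69, 0.39 and 0.76 at 12, so the 2 ages overlapped only through 12-generation array 1. The count was 12 without that array and fell to 1 without any of 18 other single arrays, those of 1 generation included. The share of all genes called without these arrays is not given here, so these counts do not describe the MRPL genes alone. For 0 of the 33 genes did the arrays of 18-20 and 12 generations stand fully apart, as held for 2.63% of all genes.

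Between 12 and 8 generations, 3 MRPL genes rose and 1 fell, where 12.6% of all genes rose and 13.9% fell (26.4% changed). MRPL28 differed by 1.38 ± 0.21 (limma adjusted p = 2.82e-05), since at 8 generations it had a lowest, median and highest value of -0.65, 0.10 and 0.73 and a fitted 0.01 ± 0.15. MRPL4 differed by 0.70 ± 0.20 (limma adjusted p = 0.00985) and MRPL36, of the bL31 family, by 0.61 ± 0.18 (limma adjusted p = 0.0152). MRPL22 was lower by -0.66 ± 0.21 (limma adjusted p = 0.0223). With 8-generation array 1 turned, 4 rose and 1 fell (14.3% and 15.1% of all genes). These 4 genes still passed, with MRPL28 at 1.20, MRPL4 at 0.64, MRPL36 at 0.52 and MRPL22 at -0.72, and MRPL25 (0.53, limma adjusted p = 0.0345) joined the rises. With spot size as a block, which takes nearly all of its information from 18-20-generation array 7, MRPL28 differed by 0.87 and did not pass (limma adjusted p = 0.182).

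Other proteins of the large subunit, without an MRPL name, were counted beside them. Of 9 tested, 4 rose and 0 fell at 12 generations, where 23.3% of all genes rose (median 0.33, with 2 of 9 below 0), and 3 rose and 2 fell at 18-20 (33.3% and 22.2%, against 32.9% and 31.2% of all genes; median 0.33). Without 12-generation arrays 2 and 3, 2 rose and 0 fell at 12 generations, with a median of 0.14. MRP20, of the uL23 family at the tunnel exit, had 1.04 ± 0.18 at 18-20 generations (limma adjusted p = 1.35e-05, above 0 on 7 of 7 arrays), and MRP49 had 0.68 ± 0.13 (limma adjusted p = 3.83e-05). MNP1, of the bL12 family that forms the stalk on which elongation factors act, fell by 0.90 on the log2 scale (SE 0.26, limma adjusted p = 0.00385, below 0 on 7 of 7 arrays).

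Genes of the mitochondrial small subunit, which decodes the mRNA, were counted in the same way. Of 33 tested, 13 rose and 0 fell at 12 generations (39.4% and 0%, against 23.3% and 21.5% of all genes; median 0.30). At 18-20 generations 10 rose and 6 fell (30.3% and 18.2%, against 32.9% and 31.2% of all genes; median 0.03). Without 12-generation arrays 2 and 3, 7 rose and 3 fell at 12 generations, with a median of 0.07. On every 12-generation array the median of the small-subunit genes had the same sign as that of the MRPL genes, and the largest gap between them was 0.19, so arrays 2 and 3 were also high here (0.97 and 1.02) and array 1 low (-0.34). At 18-20 generations the signs matched on 4 of 7 arrays, and the largest gap was 0.43, on array 7 (-0.36 for MRPL genes and 0.06 for small-subunit genes). MRPS16 had the largest rise at 18-20 generations among the called genes (1.16 ± 0.14, limma adjusted p = 2.85e-08) and RSM26 the largest fall (-1.24 ± 0.25, limma adjusted p = 8.83e-05). MRPS12 rose by 0.77 ± 0.17 (limma adjusted p = 0.000226).

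Nuclear genes of the respiratory chain had a median of 0.07 at 12 generations and 0.48 at 18-20, where the MRPL medians were 0.29 and -0.09; the difference between these lists was not tested. At 12 generations 6 of 34 rose and 3 fell (17.6% and 8.82%, against 23.3% and 21.5% of all genes). At 18-20 generations 18 rose and 3 fell (52.9% and 8.82%, against 32.9% and 31.2%). The array medians of MRPL and respiratory chain genes lay on opposite sides of 0 on 4 of 7 arrays at 12 generations and on 3 of 7 at 18-20. On 12-generation arrays 2 and 3, where the MRPL medians were 0.90 and 0.95, the respiratory chain medians were -0.58 and -0.62, while on arrays 4 and 5 both were above 0 (0.50 and 0.35 for MRPL genes, 0.80 and 0.76 for the respiratory chain). QCR10 and QCR8, subunits of the cytochrome bc1 complex, and COX7, of cytochrome c oxidase, had the largest called changes at 18-20 generations (2.09 ± 0.40, 1.72 ± 0.32 and 1.83 ± 0.33). Cytosolic ribosomal protein genes of the large subunit (RPL) fell at both later ages: 53 of 69 at 12 generations and 69 of 69 at 18-20 (76.8% and 100%, against 21.5% and 31.2% of all genes; median -1.92 at 18-20), with 0 that rose.

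Among the other genes of mitochondrial translation, factors for initiation, elongation and recycling gave 3 rises and 0 falls of 7 at 12 generations and 2 and 0 at 18-20. The shares that rose were 42.9% and 28.6%, against 23.3% and 32.9% of all genes. RRF1, the ribosome recycling factor, had 0.51 ± 0.16 at 18-20 generations (limma adjusted p = 0.00753), and AIM23, an initiation factor, 0.37 ± 0.15 (limma adjusted p = 0.0297). Of 11 mitochondrial tRNA synthetases, 3 rose and 3 fell at 18-20 generations (27.3% each way, against 32.9% and 31.2% of all genes), with the largest called changes in MSF1, for phenylalanine (1.16 ± 0.13, limma adjusted p = 2.04e-08), MSK1, for lysine (0.66 ± 0.17, limma adjusted p = 0.00113), and MSD1, for aspartate (0.65 ± 0.18, limma adjusted p = 0.00267).

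Genes for the assembly and membrane anchoring of the mitochondrial ribosome gave 4 falls and 2 rises of 8 at both later ages (50% and 25%). Of all genes, 21.5% fell and 23.3% rose at 12 generations, and 31.2% fell and 32.9% rose at 18-20. Set against the 1-generation arrays, 2 fell and 2 rose at 12 generations, where 13.1% of all genes fell and 14.2% rose. At 18-20 generations 3 fell and 1 rose in this way, where 25.3% of all genes fell and 26.4% rose. OXA1, the inner membrane insertase that binds the large subunit near the tunnel exit, fell to -0.64 ± 0.09 at 12 generations and to -0.98 ± 0.09 at 18-20 (limma adjusted p = 7.85e-10, below 0 on 7 of 7 arrays). MRM1, a methyltransferase of the large-subunit rRNA, had -0.73 ± 0.16 (limma adjusted p = 0.000239). MTG1, a GTPase of large-subunit assembly, rose by 0.73 ± 0.12 at 18-20 generations (limma adjusted p = 8.79e-06).

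Of the regulators, HAP2, a DNA-binding subunit of the HAP complex that activates respiratory genes, had 0.90 ± 0.15 at 18-20 generations (limma adjusted p = 1.15e-05), and HAP3, its partner, had -0.40 ± 0.14 (limma adjusted p = 0.0146). PUF3 had 0.38 ± 0.12 (limma adjusted p = 0.00589) with values of 0.21 to 0.54 on the 7 arrays. HAP4, the activating subunit, had too few unmarked spots to be tested.

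Genes that neighbour the MRPL genes went both ways. RefSeq's gene order, of the reference strain, gives 20 of the 33 tested genes an upstream neighbour on the opposite strand, of which 19 neighbours were tested. Of these 19, 4 rose and 7 fell at 18-20 generations, where 32.9% of all genes rose and 31.2% fell. A neighbour was the gene with the nearest start coordinate, overlapping reading frames included, so not every such pair need stand head to head. MRPL16 (0.44) stands head to head with URA7, which encodes a CTP synthase (-2.26, limma adjusted p = 2.99e-13), and MRPL15 (-0.37) with ATG39, an autophagy receptor (1.65, limma adjusted p = 1.56e-06). These pairs were chosen after their values were seen.

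Most markers of daughter cells fell at both later ages. Of 10 genes taken as markers of daughter cells, 7 fell and 2 rose at 12 generations and 8 fell and 2 rose at 18-20, in limma (70% and 80% fell, against 21.5% and 31.2% of all genes). Their median per array ran from -0.07 to 0.09 at 1 generation, from -0.27 to 0.16 at 8, from -0.66 to -0.44 at 12 and from -1.74 to -0.72 at 18-20 generations. ASH1 and DSE3 were the 2 that rose. DSE2 and DSE4, which encode glucanases of cell separation, had -2.29 ± 0.18 and -2.15 ± 0.12 at 18-20 generations, and SCW11 had -1.32 ± 0.13. The part of these genes' fall in the MRPL values was not tested.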

How the data were processed

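Gene expression was measured on 27 two-colour spotted arrays. Per the file headers, the scanner files deposited by the authors give for each spot the median intensity and local background in both dyes, the percent of pixels above background, and a mark (a score) for spots set aside. The authors' processed table holds log2 ratios, deposited with normalization and centring unstated; 23 of the 27 columns lay closest to the scanner ratios of the array they are named for, while 1-generation columns 3 and 4 and 8-generation columns 1 and 3 lay closest to each other's (column medians -0.0625 to 0.0984). It served as an alternative only. With limma 3.58.1 in R 4.3.3, normexp (offset 50) corrected the background, loess (span 0.3) normalized the ratios, marked spots (174 to 1157 of 6580 per array) were dropped, and ratios were turned to aged over young by the labelled dyes, inverted on 11 arrays. An array's median signal was 292 to 4484.5 in red and 260 to 3927.5 in green. The number of arrays limits the precision.

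A gene was tested if unmarked on at least 3 arrays of every age. A single limma fit with a mean per age and a dye term gave each age against 0, older ages minus 1 generation, 18-20 minus 12 and 12 minus 8 (two-sided, Benjamini-Hochberg over 5865 genes, threshold 0.05). The fit was also run on simulated data with independent arrays and an equal spread at every age. Real arrays differ in both respects, so that run does not show how the fit copes with them. The members and gene lists were chosen with earlier results of these data known. Named were the 5 largest rises and falls at 18-20 generations, the 5 largest rises at 12, the 3 lowest p at 8 and at 1, up to 3 of each sign for the differences, MRPL25, MRPL32, and up to 3 genes of each other list. Alternatives changed background, normalization, scaling, dye term, filters, weights, source table, blocks, array signs and the arrays used. Promoter motifs were not analysed here.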

Additional observations from a re-analysis of the deposited data

Results flagged for a closer look

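In 1 of 28 sets of arrays checked, a lone array stood far from the others of its age, and chance gives about 1 in 20. MRPL38 had -0.62 on 8-generation array 1, while the next lowest array had 0.51. The direction of array 1 is not settled, and with its sign turned this value would lie among those of the other arrays of that age.

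For 7 MRPL genes the change from young cells differed between 18-20 and 12 or between 12 and 8 generations by the test of the difference itself; differences from the 1-generation arrays are not counted here. MRPL27 was lower at 18-20 than at 12 generations by -0.95, MRPL39 by -0.58 and MRPL8 by -0.49. MRPL28 was higher at 12 than at 8 generations by 1.38, MRPL4 by 0.70 and MRPL36 by 0.61, and MRPL22 was lower by -0.66 on the log2 scale.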

How the results depend on the processing

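MRPL28 passed at 12 and at 18-20 generations under all 21 alternatives and without each of the 27 single arrays. Counts moved far under 6 of 21 alternatives at 18-20 generations and under 11 of 20 for 18-20 minus 12, and less often in the other comparisons. The number of MRPL genes changed at 12 generations was 4 with spot size as a block and 4 minus the 1-generation arrays. At 18-20 generations it was 9 with median centring, 1 with scaled arrays, 7 with the spot size block, 5 with alike arrays averaged, 6 without arrays 1 to 4, and 5 minus the 1-generation arrays. At 8 generations it was 16 with array weights, 4 with the spot size block, 9 with array 1 turned and 5 without arrays 1 and 3, and at 1 generation 1 with the spot size block. The count for 18-20 minus 12 was 0 with scaled arrays and 6 with array weights. It was 1 with plain subtraction, median centring, dim spots left out, the authors' table, the spot size block, alike arrays averaged, 8-generation array 3 turned or 12-generation arrays 2 and 3 left out. For 12 minus 8 it was 2 with median centring and with scaled arrays. The median at 1 generation was -0.040 with median centring and -0.13 with the spot size block. The share of all genes called also moved with the setting, so these counts do not describe the MRPL genes alone. Of all genes, 44.8% changed at 12 generations and 64.2% at 18-20 in the main fit, against 27.3% and 51.7% minus the 1-generation arrays.

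Signs turned for MRPL10 (-0.061) and MRPL19 (-0.15) at 1 generation with median centring. With the spot size block they turned for MRPL33 (-0.21 at 18-20, -0.38 at 12 generations), MRPL24 (-0.065 at 12), MRPL10 (-0.21) and MRPL4 (-0.17) at 1, and MRPL36 (-0.031) for 12 minus 8. MRPL32 at 18-20 generations had -0.053 with alike arrays averaged and -0.20 without arrays 1 to 4, where MRPL33 had -0.19. The cause was not tested.

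Leaving out each array in turn gave 0 to 0 changed genes at 1 generation, 0 to 7 at 8 (7 without 8-generation array 1), 10 to 18 at 12 (18 without 12-generation array 1) and 9 to 16 at 18-20 (16 without 12-generation array 1, 9 without 18-20-generation array 1 or 4). The count was 1 to 12 for 18-20 minus 12 and 2 to 7 for 12 minus 8 (7 without 12-generation array 1, 2 without 8-generation array 5). With all arrays, 44.8% of all genes changed at 12 generations, 64.2% at 18-20, 19.7% for 18-20 minus 12 and 26.4% for 12 minus 8. The share with an array left out can differ from these, so the ranges do not describe the MRPL genes alone. Medians ran from 0.02 to 0.08, 0.18 to 0.34, 0.18 to 0.46 and -0.10 to 0.01 at the 4 ages, youngest first.

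Array numbers did not pair arrays across ages: same-numbered arrays of different ages had a median correlation of deviations of 0.01, against 0.00 for other pairs. With the replicate block, 12 genes changed at 12 generations, 14 at 18-20, 1 for 18-20 minus 12 and 5 for 12 minus 8. The main fit had 13, 14, 3 and 4. The share of all genes called with this block is not given here, so these counts do not describe the MRPL genes alone. Spots near background limit MRPL19 and MRPL20 most, which were above it in both dyes on 16 and 20 of 27 arrays.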

Other observations

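MRPL17, of the mL46 family, could not be tested. Its log2 ratio was -0.26 to 0.44 on the 6 arrays of 8 generations, on both sides of 0, and 0.17 on the single usable array of 18-20 generations, against 1.02 on the single usable array of 1 generation, whose spot was dim.

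Genes encoded by mitochondrial DNA, the templates of the mitochondrial ribosome, formed a list chosen after the data were seen. Of 15 tested, 0 rose and 0 fell at 12 generations, where 23.3% of all genes rose and 21.5% fell. At that age 2 of the 15 had an unadjusted p under 0.05 in limma, against 3021 of all 5865 genes. At 18-20 generations 0 rose, where 32.9% of all genes rose, and the median was -0.30. At this age 5 fell (33.3%), a share near the 31.2% of all genes. Set against the 1-generation arrays, 1 of 15 fell at 18-20 generations, where 25.3% of all genes fell. ATP8, a subunit of the ATP synthase, had -1.45 and COX2, of cytochrome c oxidase, -0.72 at 18-20 generations. RPO41, the mitochondrial RNA polymerase, had -0.22 at 12 generations and 0.01 at 18-20, and passed at neither age.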
